A study of Mus musculus with 14 samples.

Results

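*Cdkn1c*-high pontine neurons are glutamatergic neurons of the pontine nuclei (PN) that carried many transcripts of *Cdkn1c* 5 days after birth. They were picked by unique molecular identifiers (UMIs, each standing for 1 captured RNA molecule) in single cells: at least 20 of *Mapt*, at least 1 each of *Slc17a6* and *Barhl1*, none of *En2*, at least 6 of *Cdkn1c*, and no more than 2 of *Nr2f2*, 1 of *Hoxb5* and 1 of *Gad2*. Cells with fewer than 1000 detected genes or with 10% or more mitochondrial UMIs were left out first. This rule took 805 cells, 461 from P5 library 1 and 344 from P5 library 2, out of 8074 P5 pontine neurons that met the limits on *Mapt*, *Slc17a6*, *Barhl1* and *En2* and out of 17908 P5 cells kept. Over all 14 libraries, 122658 of 150188 barcodes were kept. Because *Cdkn1c* and 7 other genes chose the cells, their levels are given as a description, and so is every other gene at P5, since the population was chosen with P5 results known.

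Each library held sorted tdTomato-positive cells of the *Atoh1* lineage from C57BL/6J mice. The P5 libraries came from microdissected PN of 11 to 13 pooled control pups each, Atoh1Cre/+; Rosa lsl-tdTomato/+, in which Cre replaces the coding region of 1 copy of *Atoh1*, so that the controls carry a null allele too. The E14.5 and E18.5 libraries came from whole hindbrain of 1 embryo each, 3 controls of the same genotype and 3 Atoh1Cre/S193A; Rosa lsl-tdTomato/+ littermates (Atoh1S193A/-), which carry a hypomorphic allele in place of the normal one over the null allele. Atoh1S193A/- mice at P5 were not analysed here. Cre from the Atoh1 locus marks the whole lineage of cells that once expressed *Atoh1*, which includes cerebellar granule cells and unipolar brush cells, and the rule rather than a dissection sets the PN identity of the embryonic cells.

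PN neurons arise from the rhombic lip, migrate to the ventral pons and send mossy fibers to the cerebellum, where they relay information from the cortex. *Cdkn1c* encodes p57Kip2, an inhibitor of cyclin-dependent kinases that is expressed from the maternal allele and is best known for driving exit from the cell cycle. *Prox1* encodes a homeodomain transcription factor used in neuronal and lymphatic differentiation, and *Gstm1* encodes a cytosolic glutathione S-transferase. Per GENCODE M21 on GRCm38, *Cdkn1c* lies on chromosome 7 from 143458339 to 143461050, *Prox1* on chromosome 1 from 190118035 to 190170714 and *Gstm1* on chromosome 3 from 108012255 to 108017973, all on the minus strand. The antisense gene *Prox1os* overlaps the start of *Prox1* on the opposite strand, from 190170296 to 190217276.

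The *Cdkn1c*-high cells made up 9.21% of pontine neurons in P5 library 1 (461 of 5005, exact binomial 95% interval 8.42 to 10.0) and 11.2% in library 2 (344 of 3069, 10.1 to 12.4), a mean of 10.2% ± 1.41 (SD, n = 2). The mean share moved with the limits, to 12.6% with at least 4 *Cdkn1c* UMIs, 6.76% with at least 10 and 6.24% after thinning each cell to 10000 UMIs. The median *Cdkn1c* count of the *Cdkn1c*-high cells was 11 UMIs in library 1 (quartiles 8 and 16, highest 67) and 13 in library 2 (quartiles 9 and 19, highest 59). The comparison cells met every other limit but had 0 to 5 *Cdkn1c* UMIs. There were 2086 of them in library 1, 1413 with no *Cdkn1c* UMI, and 1138 in library 2, 791 with none. Depth was close in both populations, with medians of 26613 and 29982 UMIs per *Cdkn1c*-high cell and 28112 and 31632.5 per comparison cell. The P5 libraries shared 38 barcodes, none of them from *Cdkn1c*-high cells. Library totals ranged from 108239001 to 236964126 UMIs over the series.

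The population was set beside its markers *Prox1* and *Gstm1*. These were known from the P5 data beforehand, so the values are a description and no check of the name. *Prox1* was detected in 73.8% of *Cdkn1c*-high cells of library 1 and 69.5% of library 2, against 12.1% and 8.35% of comparison cells. Of microglia-like cells of the same libraries (at least 5 *C1qa* and at most 5 *Mapt* UMIs), 12.3% and 11.5% held a *Prox1* UMI. Their median depths were lower, at 10033.5 and 10354.5 UMIs, so these shares are not at the depth of the comparison cells. Within the comparison cells *Prox1* was not at 1 level. It was higher in cells with more *Cdkn1c* UMIs, from 3.29 and 2.16 counts per 1000000 UMIs in cells with none to 39.1 and 14.3 in cells with 5. *Gstm1* was found in 93.9% and 95.3% of *Cdkn1c*-high cells, in 66.9% and 68.5% of comparison cells and in 21.9% and 15.8% of microglia-like cells. After thinning each cell to 10000 UMIs, which left out 0 *Cdkn1c*-high cells and 16 and 7 comparison cells, *Prox1* was seen in 50.5% and 45.3% of *Cdkn1c*-high cells and in 6.76% and 3.27% of comparison cells. Both markers were present in 69.6% and 67.4% of *Cdkn1c*-high cells and neither in 1.95% and 2.62%. Of the cells with a *Prox1* UMI among both populations together, 57.4% and 71.6% were *Cdkn1c*-high, and 6.19% and 9.15% of those without.

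Levels are given from here in counts per 1000000 UMIs (CPM, summed over the cells of a population). Of the 7 pontine markers, *Mapt*, *Slc17a6* and *Barhl1* were required in every cell of both populations, so the rule set their presence. The other 4, *Pax6*, *Hoxb2*, *Hoxb3* and *Hoxb4*, summed to 208 and 199 CPM in *Cdkn1c*-high cells and to 242 and 227 CPM in comparison cells. *Pax6* was at 61.6 and 58.9 CPM against 81.2 and 77.9. *Slc17a7*, the vesicular glutamate transporter VGLUT1, was detected in 26.0% and 21.5% of *Cdkn1c*-high cells and in 57.5% and 57.2% of comparison cells. Without *Gad2*, which the rule limits, the 4 other inhibitory neuron markers summed to 5.97 and 5.95 CPM against 3.63 and 2.70, most of it *Pax2*. Without *En2*, which the rule sets to 0, the 4 other granule lineage markers summed to 14.6 and 8.09 CPM against 2.40 and 2.62. In *Cdkn1c*-high cells 2 of the 4 were at 0 in library 1, where *Barx2* and *Lhx2* made up the sum, and 1 in library 2, with *En1* at 0 in both. Without cells of 5 or more glial marker UMIs the sums were 6.33 and 5.74 CPM against 1.56 and 1.42. The 3 markers of unipolar brush cells summed to 2.99 and 0.533 CPM against 1.51 and 1.91. The sorting reporter, read by its WPRE sequence, was at 392 and 435 CPM against 397 and 434.5.

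Among the genes with at least 50 CPM in both libraries of either population, 3435 outside the rule, 31 were at least 2-fold higher in *Cdkn1c*-high cells in both libraries (0.902%) and 35 at least 2-fold lower (1.02%). Against all other P5 pontine neurons, the cells left out by *Nr2f2*, *Hoxb5* or *Gad2* included, 14 were higher (0.413% of 3389) and 22 lower (0.649%), 14 of the 31 and 20 of the 35 among them. Of the 2-fold genes named in the next paragraphs, *Phlda1*, *Zic1*, *Zic4*, *Kcnd2*, *Cadm1*, *Reln*, *Syt4*, *Nrgn* and *Bdnf* were under 2-fold in both libraries in that comparison, in the same direction, and *Pnoc*, *Cxcl14* and *Col11a1* stayed past 2-fold but did not reach 50 CPM and were not counted. The median log2 difference over the 3435 genes was -0.013 and -0.008. All log2 differences at P5 are on the scale of log2(CPM + 1). Among the 12 genes with the largest difference were *Prox1*, *Gstm1*, *Fbxo2*, *Zbtb20*, *Kctd8*, *Meis2*, *Epcam*, *Kctd12*, *Tmem163*, *Phlda1* and *Lrrn3*.

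**Figure D1:**
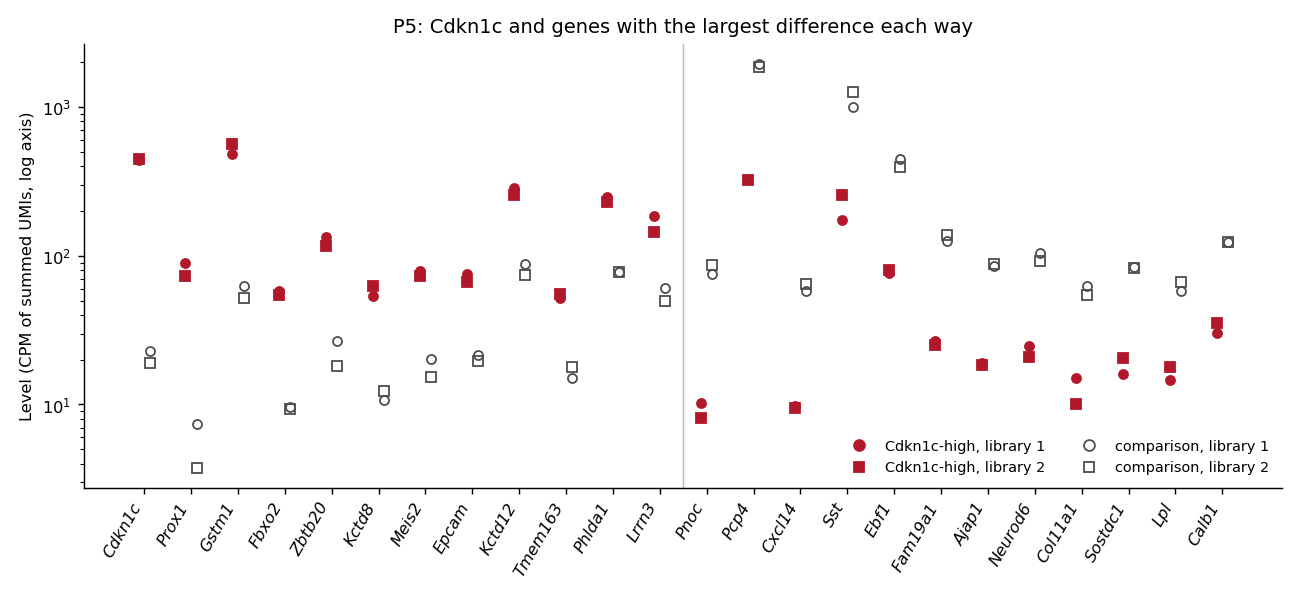
Level of each gene in P5 library 1 (circles) and library 2 (squares), in CPM of summed UMIs on a log axis, in *Cdkn1c*-high cells (filled) and comparison cells (open). *Cdkn1c*, which the rule used, and 11 of the 12 genes with the largest positive difference stand left of the line, those with the largest negative difference right of it. The libraries of each gene lie closer to each other than the populations do, but the genes were chosen for a large difference in both libraries.

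Transcription factors were among the genes with the largest differences. *Prox1* was at 89.9 and 73.6 CPM in *Cdkn1c*-high cells and at 7.43 and 3.77 CPM in comparison cells, a log2 difference of 3.43 and 3.97. *Zbtb20*, a zinc finger repressor, was at 134 and 116 CPM against 26.9 and 18.2. *Meis2*, a TALE homeodomain cofactor, was at 79.1 and 73.4 CPM against 20.4 and 15.4, with *Meis1* at 189 and 179 CPM against 114 and 94.3. These values were higher in *Cdkn1c*-high cells of both libraries without overlap, but *Prox1*, *Zbtb20* and *Meis2* were named for their large difference in both libraries. Of the Zic family of zinc finger factors, 4 of 4 counted genes were higher in both libraries, where 39.0% of all counted genes were, and 2 of the 4 at least 2-fold, 0 of 4 against all other pontine neurons. *Zic1* was at 1001 and 1061 CPM against 488 and 465, and *Zic4*, whose locus on chromosome 9 overlaps it on the opposite strand, at 375 and 365 against 157 and 140.5.

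Enzymes and signaling proteins were among the highest as well. *Gstm1* was at 485 and 568 CPM against 62.7 and 51.8, log2 differences of 2.93 and 3.43. Other glutathione S-transferases lay closer together in the populations, with *Gstm5* at 247 and 268 CPM against 190.1 and 196 and *Mgst3* lower at 583 and 583 against 768 and 738. The Gstm genes are near-identical in parts, so reads could be split among them. *Fbxo2*, a neuronal F-box protein of ubiquitin ligases that recognizes glycoproteins, was at 58.1 and 54.7 CPM against 9.57 and 9.34. *Kctd8* and *Kctd12*, auxiliary subunits of GABAB receptors, were at 53.6 and 63.0 CPM against 10.8 and 12.3 and at 285 and 255 CPM against 87.8 and 74.1, whereas the receptor subunits *Gabbr1* and *Gabbr2* had log2 differences between -0.11 and 0.31. *Kcnd2*, which carries A-type potassium current, was at 276 and 264 CPM against 119.6 and 117.

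Several genes of the cell surface and of secretion were also higher, although the adhesion list as a whole was divided. *Epcam*, a homophilic adhesion molecule of epithelia, was at 74.9 and 66.4 CPM against 21.5 and 19.5. *Lrrn3* (186 and 145 CPM against 60.9 and 49.5) and *Lrrc4c*, a netrin-G ligand (99.3 and 102 against 35.5 and 30.4), encode leucine-rich repeat membrane proteins. *Cadm1*, a synaptic adhesion molecule, was at 420 and 471 CPM against 208 and 231. Of the reelin pathway, 2 of 4 counted genes were higher in both libraries and 2 lower, where 39.0% and 44.8% of all counted genes were. The higher ones were *Reln*, the secreted ligand reelin, and *Dab1*, an adaptor inside the cell, *Reln* at 65.0 and 71.4 CPM against 27.4 and 22.6 and *Dab1* at 64.0 and 63.9 against 29.7 and 22.5. The lower ones, *Lrp8* and *Crk*, had log2 differences between -0.16 and -0.01. *Syt4*, a synaptotagmin of secretory vesicles, was at 663 and 646 CPM against 274 and 286. *Phlda1*, a pleckstrin homology-like protein that is also induced by stress, was at 249 and 229.5 CPM against 77.5 and 78.3, while *Fos*, the classic early response gene, was at 176.5 and 227 against 228 and 276. Of the 7 counted genes of early and dissociation response, 4 were higher in both libraries and 2 lower.

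For 9 of the 12 highest genes the RefSeq table of GRCm38.p6 held an entry, and the 250 bases before the annotated start were read from it on the strand of the gene. Of these, 3 are shown because *Prox1* and *Gstm1* are markers of the population and *Kctd8* is a subunit gene with a large difference, chr1:190170828-190171077, chr3:108017974-108018223 and chr5:69341710-69341959, all on the minus strand and written 5′ to 3′. Capitals mark CAGATG or CAGCTG, E-box hexamers of the kind that *Atoh1* and related basic helix-loop-helix factors bind, searched on both strands (CATCTG is the complement of the first).
Prox1: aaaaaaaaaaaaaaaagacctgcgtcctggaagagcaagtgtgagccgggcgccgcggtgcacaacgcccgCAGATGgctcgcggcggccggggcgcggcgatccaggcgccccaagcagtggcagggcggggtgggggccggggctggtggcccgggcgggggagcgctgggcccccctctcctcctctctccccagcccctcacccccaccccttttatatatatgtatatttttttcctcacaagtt
Gstm1: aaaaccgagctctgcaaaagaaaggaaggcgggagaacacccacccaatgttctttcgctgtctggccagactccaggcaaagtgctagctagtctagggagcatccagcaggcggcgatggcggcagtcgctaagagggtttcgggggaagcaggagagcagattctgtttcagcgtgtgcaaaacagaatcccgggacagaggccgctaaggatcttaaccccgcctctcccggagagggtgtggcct
Kctd8: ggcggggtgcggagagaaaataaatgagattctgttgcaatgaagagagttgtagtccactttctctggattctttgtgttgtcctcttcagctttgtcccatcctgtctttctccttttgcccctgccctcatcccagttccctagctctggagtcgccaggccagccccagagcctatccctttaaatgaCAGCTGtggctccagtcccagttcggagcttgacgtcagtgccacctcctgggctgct
*Prox1* held CAGATG, *Kctd8* held CAGCTG, and the window of *Gstm1* and those of the other 6 genes held neither. Either hexamer was found in 2 of 9 windows (22.2%) and in 25.5% of all 32851 promoters of the same length, 14.4% for CAGATG and 13.0% for CAGCTG, so the 9 were close to all promoters in this respect.

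The 12 genes with the largest negative difference were *Pnoc*, *Pcp4*, *Cxcl14*, *Sst*, *Ebf1*, *Fam19a1*, *Ajap1*, *Neurod6*, *Col11a1*, *Sostdc1*, *Lpl* and *Calb1*. *Pcp4*, a modulator of calmodulin, was at 329 and 323 CPM in *Cdkn1c*-high cells and at 1944 and 1859 CPM in comparison cells. The neuropeptide genes *Sst* and *Pnoc* were at 174 and 255 CPM against 999 and 1256 and at 10.2 and 8.18 CPM against 75.0 and 86.3. *Ebf1*, an early B cell factor used in neuronal migration and differentiation, was at 76.3 and 80.0 CPM against 445 and 395. *Neurod6*, a basic helix-loop-helix factor of glutamatergic neurons, was at 24.9 and 20.7 CPM against 104 and 92.2. The markers of the *Sst*-high subtype, which the study set on these samples, were 5 of 5 at least 2-fold lower, where 1.02% of all counted genes were, and 3 of 3 counted against all other pontine neurons.

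**Figure D2:**
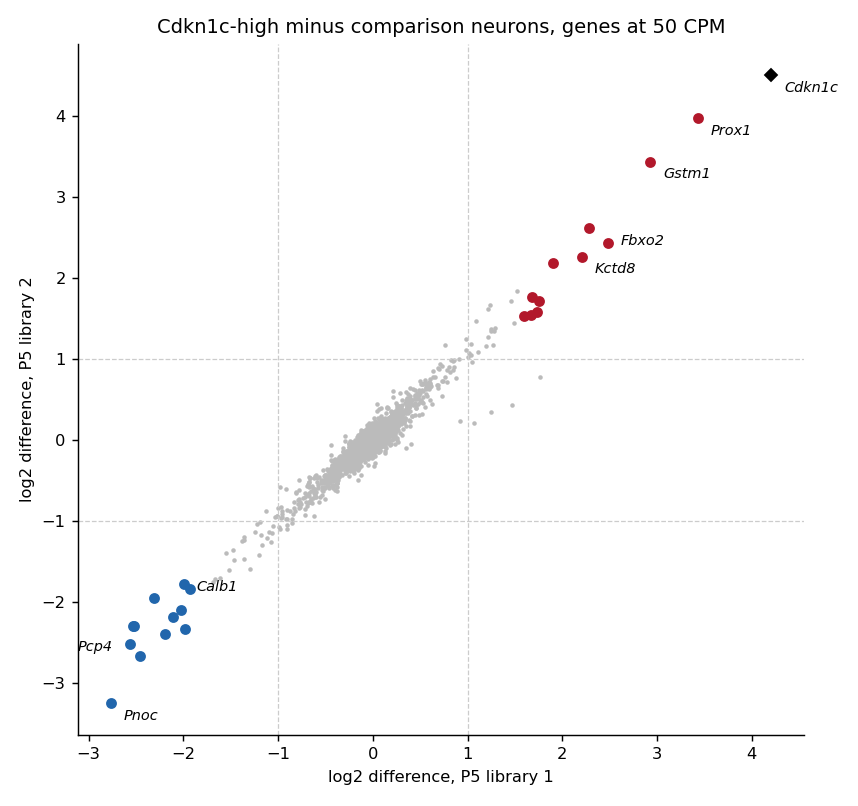
Log2 difference of *Cdkn1c*-high minus comparison cells in P5 library 1 (x axis) and library 2 (y axis) for genes with at least 50 CPM in either population, with dashed lines at 2-fold. Red and blue points are 11 and 12 of the genes with the largest difference each way, and the black diamond is *Cdkn1c*, which the rule used. Most genes lie within the dashed lines, and the colored points, chosen by their difference in both libraries, lie beyond 2-fold in both.

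Lists of genes chosen for this tissue differed in how they divided between the populations. The study's list for this subtype had 9 of 9 counted genes outside the rule at least 2-fold higher, where 0.902% of all counted genes were, with median log2 differences of 1.69 and 1.77. Against all other pontine neurons 5 of the 9 were. The study chose that list on these samples, so it is not independent evidence of its direction. Cholesterol synthesis had 11 of 11 counted genes higher in both libraries, where 39.0% of all counted genes were, none of them 2-fold, with medians of 0.53 and 0.44. *Fdps*, which makes farnesyl pyrophosphate, was at 173.5 and 229.8 CPM against 109 and 133, and *Msmo1*, a sterol demethylase, at 99.3 and 105 against 59.2 and 63.1. Of the glutamate receptors, 8 of 9 counted genes were lower in both libraries, where 44.8% of all counted genes were, led by the AMPA receptor subunit *Gria3* at 24.8 and 23.9 CPM against 70.5 and 62.7, and *Grin3a* was the exception at 134 and 129 against 81.3 and 66.7. Among lineage factors 3 of 11 were at least 2-fold lower, where 1.02% of all counted genes were, and *Bcl11a* was at 99.4 and 86.9 CPM against 316 and 289.

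Further lists were divided between the populations. Of the list of neuropeptides and granins, which also held *Nrgn* and *Bdnf*, 3 of 12 counted genes were higher in both libraries and 8 lower. Of these, 1 was 2-fold higher (*Nrgn*) and 3 were 2-fold lower (*Pnoc*, *Sst* and *Bdnf*). Against all other pontine neurons 0 and 1 were. Of cadherins and other adhesion molecules, 9 of 22 were higher and 11 lower, 3 and 1 of them 2-fold (2 and 0 against all other pontine neurons), and of sodium, calcium and HCN channels 6 of 14 were higher and 6 lower, none 2-fold. Glutathione synthesis genes and peroxidases were lower in 8 of 10, none 2-fold, although *Gstm1* was among the highest genes. Of GABAA and glycine receptors, 2 of 7 were higher and 4 lower, with *Gabra5*, an extrasynaptic GABAA receptor subunit, at log2 differences of -0.82 and -0.88. Shares of all counted genes were 39.0% higher and 44.8% lower in both libraries, and 0.902% and 1.02% 2-fold. By genes higher or lower in both libraries, the neuropeptide and glutathione lists lay to the lower side of these shares.

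Of the 7 other inhibitors of the Cip/Kip and Ink4 families, 3 were counted and none was 2-fold apart. *Cdkn1a* was at 486 and 567 CPM against 513 and 542, *Cdkn2d* at 167 and 189 against 190.2 and 214.5, and *Cdkn1b* at 86.9 and 87.8 against 70.5 and 66.4. No gene of the proliferation list reached 50 CPM, and its 12 genes summed to 104 and 125 CPM in *Cdkn1c*-high cells and to 104 and 128 in comparison cells. Of the imprinted domain around *Cdkn1c*, 3 genes were counted, all slightly higher in both libraries, where 39.0% of all counted genes were, and none 2-fold. *Kcnq1ot1*, the antisense transcript that silences the paternal copy of the domain, was at 348 and 312 CPM against 275 and 259. The synaptic calmodulin-binding protein *Nrgn* was at 146 and 150.0 CPM against 59.3 and 57.1, while the axonal filament gene *Nefm* was at 128 and 110 against 295 and 294 and *Bdnf*, a neurotrophin, at 80.6 and 77.8 against 169 and 173.

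Oligodendrocyte transcripts differed between the populations, whereas astrocyte markers summed to 57.9 and 75.3 CPM against 70.9 and 57.3, in opposite directions in the 2 libraries. The oligodendrocyte list of 6 genes, none at 0, summed to 905 and 477 CPM in *Cdkn1c*-high cells and to 244 and 239 CPM in comparison cells. The 10 cells with most glial UMIs held 61.2% and 84.0% of the glial UMIs of the *Cdkn1c*-high cells. Cells with 5 or more UMIs over the oligodendrocyte and astrocyte lists were 31.7% and 10.5% of *Cdkn1c*-high cells and 34.4% and 18.9% of comparison cells. Without them the list summed to 58.7 and 26.5 CPM against 61.0 and 31.7, whereas *Prox1* stayed at 104 and 76.3 against 8.32 and 3.89 and *Gstm1* at 569.5 and 609 against 68.3 and 52.5. With the highest 7.5% of Scrublet doublet scores removed instead, which took 49 and 41 *Cdkn1c*-high cells, *Prox1* was at 98.7 and 79.5 against 7.36 and 3.16. Microglia markers summed to 22.1 and 64.3 CPM against 62.1 and 64.4, and erythrocyte markers to 7.69 and 4.62 against 7.08 and 214, the last in comparison cells of library 2.

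Cells near the limit of 6 UMIs had levels between the populations. Cells just inside, with 6 or 7 *Cdkn1c* UMIs (100 and 53 cells), had 71.1 and 54.5 CPM of *Prox1*, 346 and 364 of *Gstm1* and 753 and 716 of *Pcp4*. Cells just outside, with 4 or 5 (123 and 72 cells), had 36.5 and 12.3 CPM of *Prox1*, 241 and 144 of *Gstm1* and 969.8 and 1022 of *Pcp4*. From cells with no *Cdkn1c* UMI to those with 20 or more (63 and 80 cells), *Prox1* went from 3.29 and 2.16 to 126 and 95.3 CPM, *Gstm1* from 41.7 and 40.3 to 636 and 715, and *Pcp4* from 2059.5 and 1993 to 165 and 80.6. *Prox1* in library 2 went from 14.3 CPM with 5 *Cdkn1c* UMIs, in 29 cells, to 54.5 with 6 or 7. In library 1 it went from 39.1 to 71.1 there, after a rise from 12.9 with 2 UMIs to 30.6 with 3. *Pcp4* was lower over several steps on both sides of the limit.

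**Figure D3:**
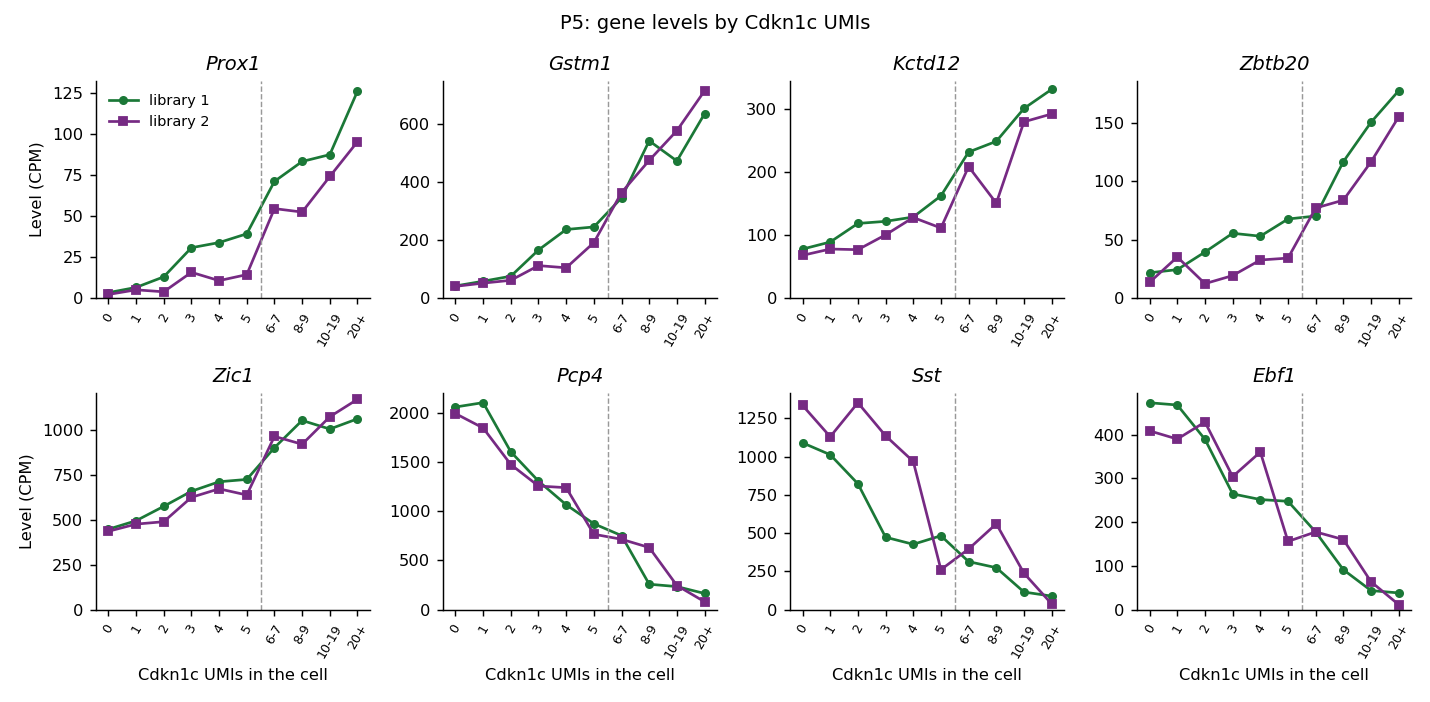
Level in CPM of 8 genes in P5 pontine neurons grouped by the *Cdkn1c* UMIs of the cell, for library 1 (circles) and library 2 (squares), with the dashed line at the limit of 6 UMIs. *Prox1*, *Gstm1*, *Kctd12*, *Zbtb20* and *Zic1* are higher toward many *Cdkn1c* UMIs, and *Pcp4*, *Sst* and *Ebf1* toward few.

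The *Cdkn1c*-high cells differed among themselves. The 340 and 239 cells with a *Prox1* UMI were set beside the 121 and 105 without, over 3276 genes. Of these, 5 were at least 2-fold higher in both libraries in cells with *Prox1*, namely *Gstm1*, *Meis2*, *Dab1*, *Zbtb20* and *Epcam*, and 13 at least 2-fold lower. *Gstm1* was at 605 and 721 CPM with *Prox1* and at 186 and 218 CPM without. *Pcp4* was at 185 and 128 CPM with and 689 and 769 without, and *Ebf1* at 51.4 and 32.1 against 139 and 189.6. *Cdkn1c* itself was at 483 and 486 CPM with and at 330.5 and 365 without, so the cells also differed in the transcript that chose them.

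A further 1085 of the 1890 P5 pontine neurons with at least 6 *Cdkn1c* UMIs were left out by the limits on *Nr2f2*, *Hoxb5* or *Gad2*. They had 68.5 and 51.2 CPM of *Prox1*, 254 and 300.1 of *Gstm1*, 224 and 215 of *Kctd12* and 917 and 1015 of *Zic1*, all above the comparison cells. *Pcp4* was at 270.5 and 206 CPM in them. *Gad2*, by which most were left out (427 and 365 cells), was at 92.6 and 96.8 CPM.

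At E18.5, which the rule was not made for, the same limits took 412 cells from the 6 libraries, 28 to 149 each, with 1193 comparison cells. Gene counts summed per library and population were compared by edgeR with the library as a block, and a gene was called at an adjusted p under 0.05 with an absolute log2 change over 0.25. Of 10194 genes outside the rule, 411 were higher (4.03%) and 421 lower (4.13%), 8.16% together. DESeq2 called 435 genes, and edgeR called 1466 when the comparison cells had 0 or 1 *Cdkn1c* UMI. Of the study's list, 8 of 9 were higher. Comparison cells of E18.5 also carried transcripts of other *Atoh1*-lineage cells, with granule lineage markers at 79.7 to 142 CPM against 4.30 to 28.8 in *Cdkn1c*-high cells and unipolar brush cell markers at 82.5 to 172 against 5.37 to 42.4. When cells of both populations also had to hold UMIs of *Pax6* and of *Hoxb2*, *Hoxb3* or *Hoxb4*, 84 genes were higher (0.825%) and 47 lower (0.462%), and 94 of these calls were shared with the first comparison. With that restriction 6 of 9 genes of the study's list were higher. Unipolar brush cell markers were then still at 39.5 to 92.5 CPM in comparison cells against 2.91 to 49.8 in *Cdkn1c*-high cells. Granule lineage markers were at 14.1 to 25.8 against 0 to 17.0. In Atoh1S193A/- embryo 1 both sums were higher in *Cdkn1c*-high cells.

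*Prox1* was at 159.5, 119 and 113 CPM in *Cdkn1c*-high cells of the control embryos and at 45.0, 55.5 and 36.7 CPM in their comparison cells, and at 52.4, 106 and 75.2 against 26.8, 29.7 and 33.0 in the Atoh1S193A/- embryos. It was higher in 6 of 6 libraries, with a log2 change of 1.48 (SE 0.09, adjusted p = 1.5e-13 by edgeR), 1.11 under the restriction. *Zbtb20* rose by 1.77 (SE 0.08) and *Kctd12* by 1.22 (SE 0.07), both in 6 of 6 libraries. *Phlda1* rose by 0.87 (SE 0.07), and *Gstm1* by 0.64 (SE 0.15) in 5 of 6 libraries at means of 29.0 ± 12.5 and 17.5 ± 3.13 CPM (SD, n = 6). With the restriction the change of *Gstm1* was 0.41 and was not called. *Meis2* was higher by 0.54 (SE 0.11), but in 4 of 6 libraries, at 294, 181 and 249 CPM against 253, 107 and 119 in controls and at 161, 78.1 and 84.9 against 83.4, 94.2 and 130.0 in Atoh1S193A/- embryos. *Zic1* was not called, with 1095 ± 129 and 1095 ± 76.9 CPM.

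The largest rises at E18.5 were those of *Col25a1*, a membrane collagen needed in motor innervation (log2 2.02, SE 0.24), *Prox1os* (2.01, SE 0.19), *Zbtb20*, *Far2os1*, *Epcam* (1.63, SE 0.29) and *Coch*. The largest falls were those of *Syt6*, *Tlx3*, Fgf5, Cemip, *Otx2* and *En1*, among which *En1* and *Tlx3* belong to the granule lineage list and *Otx2* to the unipolar brush cell list. Under the restriction on *Pax6* and Hox UMIs, *Otx2* fell by 1.64, and *Syt6*, *Tlx3*, Fgf5, Cemip and *En1* were too low to be tested. *Dab1* and *Lrrc4c* rose by 1.31 (SE 0.13) and 1.05 (SE 0.15), and by 0.82 and 0.97 under the restriction. Of 6 reelin pathway genes *Dab1* was called higher and 2 lower, among them *Reln* at a log2 change of -0.94 (SE 0.07), which was not called under the restriction (-0.01). *Kctd8* was called only under it, at 1.25. Of 22 cholesterol synthesis genes 6 were called higher and none lower, where 4.03% and 4.13% of all genes were, among them *Hmgcs1*, the cytosolic HMG-CoA synthase, at 756 ± 55.5 against 593 ± 32.5 CPM (SD, n = 6), and 1 of 22 was called higher with the restriction, where 0.825% of all genes were.

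Of the genes that were lowest at P5, *Sst*, *Pcp4*, *Ebf1* and *Calb1* were placed differently at E18.5. *Sst* was higher in *Cdkn1c*-high cells of 6 of 6 libraries, with a log2 change of 0.45 (SE 0.06, adjusted p = 7.4e-07 by edgeR), but -0.05 under the restriction. *Pcp4* (log2 -0.13, SE 0.13), *Ebf1* (0.00, SE 0.09) and *Calb1* (-0.03, SE 0.13) were not called. Of the *Sst*-high markers 1 of 4 tested was called, and none with the restriction. The differences between the stages in these genes were tested as an interaction of population and stage, whose P5 side is the contrast by which the cells were proposed, and 5 of 5 *Sst*-high markers and 9 of 9 genes of the study's list were called in it, where 7.58% of 11316 genes were called lower and 5.69% higher. These calls describe the size of the P5 differences relative to E18.5 and are not independent evidence of them.

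**Figure D4:**
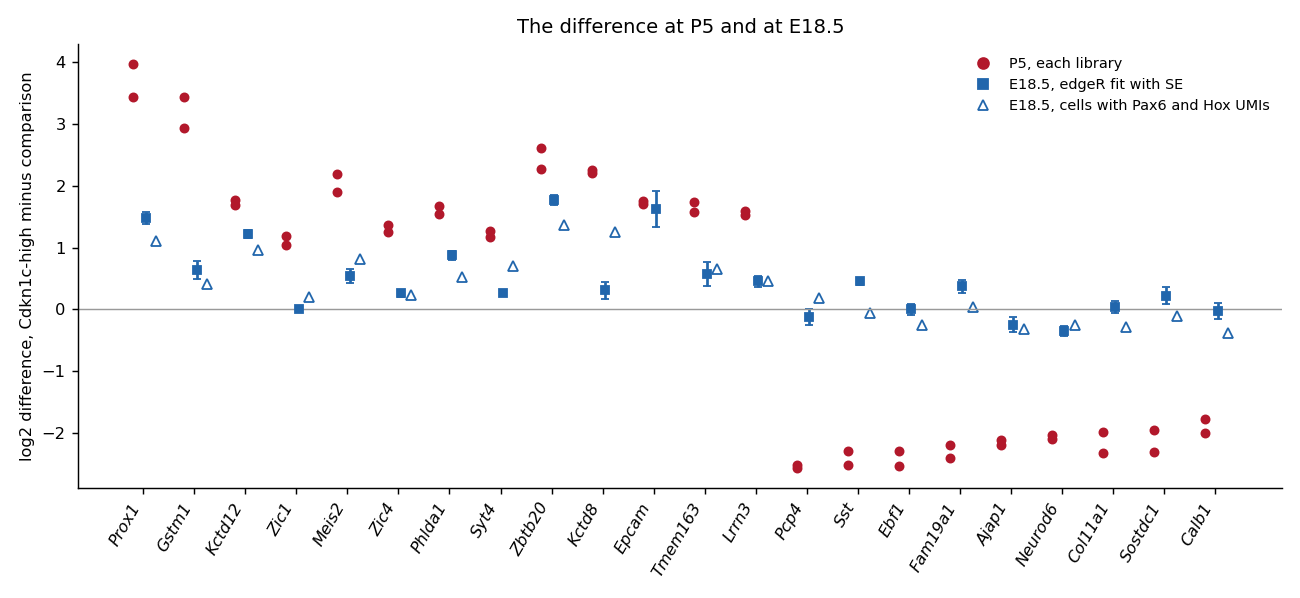
Log2 difference of *Cdkn1c*-high minus comparison cells for genes of the study's list and the genes with the largest P5 differences, in each P5 library (circles), at E18.5 by edgeR with its standard error (squares) and at E18.5 in cells with *Pax6* and Hox UMIs (triangles). *Prox1*, *Zbtb20* and *Kctd12* lie above 0 at both stages, and *Pcp4*, *Sst* and *Ebf1* lie far below 0 at P5 alone.

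The share of *Cdkn1c*-high cells among E18.5 pontine neurons was compared between genotypes. It was 9.53%, 13.9% and 14.6% in controls (59 of 619, 75 of 540 and 149 of 1018 cells) and 7.58%, 6.59% and 7.78% in Atoh1S193A/- embryos (51 of 673, 28 of 425 and 50 of 643). The groups did not overlap, at means of 12.7% ± 2.76 and 7.31% ± 0.636 (SD, n = 3 each), a difference of -5.37 percentage points with p = 0.1 by an exact two-sided permutation test, the smallest that 3 against 3 embryos allow. The littermate pairs differed by -1.95, -7.30 and -6.86 points, all in the same direction, with p = 0.25 by an exact sign-flip test, again the smallest possible. Among cells with *Pax6* and Hox UMIs the mean shares were 16.2% in controls and 9.68% in Atoh1S193A/- embryos. Among all cells kept they were 1.05% and 0.454%. Each gave p = 0.1 by the exact permutation test. Median depth of the pontine neurons was 20385, 16260.5 and 20277 UMIs in controls and 18989, 16964 and 16875 in Atoh1S193A/- embryos. After thinning to 10000 UMIs, 134 to 320 cells per library still met the pontine limits. Of these, 9, 21 and 31 in controls and 5, 5 and 17 in Atoh1S193A/- embryos were *Cdkn1c*-high. The groups then overlapped, with means of 8.07% ± 2.34 and 4.02% ± 1.82 and p = 0.2 by the exact permutation test. With 3 embryos in each group, no difference in the share could have passed the exact test at 0.05.

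**Figure D5:**
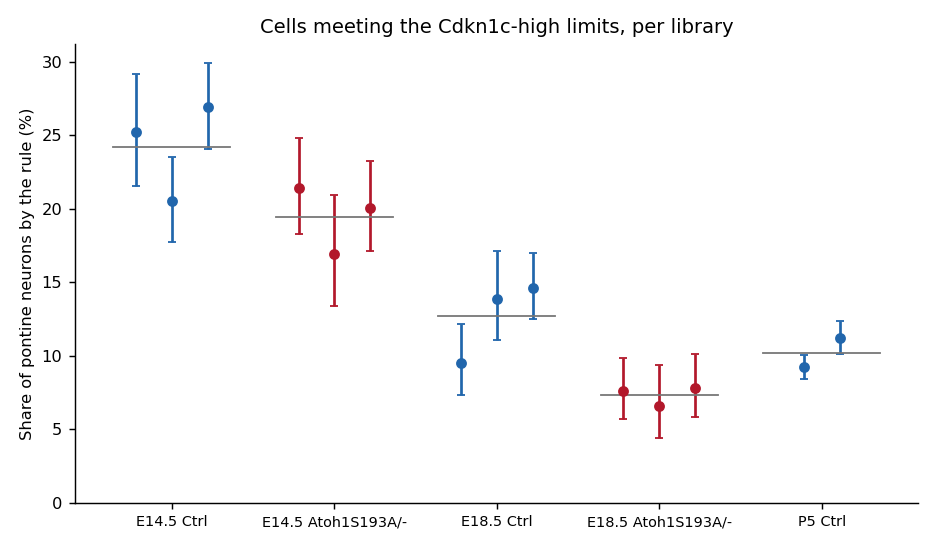
Share in percent of pontine neurons that met the *Cdkn1c*-high limits in each library, with exact binomial 95% intervals for counting error, by stage and genotype, and the group means as gray lines. The 3 E18.5 Atoh1S193A/- embryos lie between 6.59% and 7.78%, below the 3 controls at 9.53% to 14.6%, and the P5 libraries at 9.21% and 11.2%.

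Expression in the E18.5 *Cdkn1c*-high cells was compared between the genotypes as well. Of 10359 genes edgeR called 0 (0%), with 521 of 10366, the genes of the rule included, at an unadjusted p under 0.05, and DESeq2 called 0. Blocking on litter, 2 genes were called lower in Atoh1S193A/- embryos, *Meis2* (log2 -1.17, adjusted p = 0.000219 by edgeR) and *Ppp1r14c*, an inhibitor of protein phosphatase 1 (log2 -0.69, adjusted p = 0.017). Without control 3, 17 genes were called, and without Atoh1S193A/- embryo 1, 1 gene. By the study's supplement both replicate 3 embryos of E18.5 were female and the others male. Leaving out control 3 thus left a female in the Atoh1S193A/- group alone. All 9 genes of the study's list had a log2 change below 0, as 49.5% of all genes did, and 4 of the 9 had libraries that did not overlap between the genotypes, against 10.4% of all genes. *Cdkn1c* set the limit for these cells, so its values by genotype are a description and were not tested. *Cdkn1c* was at 592, 782 and 552 CPM in controls and at 400.3, 577 and 519.9 in Atoh1S193A/- embryos, with overlap, and 29 of 59, 36 of 75 and 77 of 149 control cells had at least 10 *Cdkn1c* UMIs against 16 of 51, 10 of 28 and 15 of 50. The part of these *Cdkn1c* values in the levels of the other genes was not tested. *Meis2* was at 294, 181 and 249 CPM in controls and at 161, 78.1 and 84.9 in Atoh1S193A/- embryos, log2 -1.10 (SE 0.20, adjusted p = 0.105 by edgeR without the block). *Prox1* had a log2 change of -0.82 (SE 0.18, adjusted p = 0.272 by edgeR), *Kctd12* of -0.43 (SE 0.12) and *Zic4* of -0.47 (SE 0.12). *Gstm1*, at 31.5, 37.5 and 20.7 CPM in controls and 20.8, 48.4 and 15.0 in Atoh1S193A/- embryos, overlapped. Each Atoh1S193A/- library rested on 28 to 51 cells.

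Between E18.5 and P5 controls, 4860 of 11029 genes were called in *Cdkn1c*-high cells, 44.1% of them, 22.7% higher and 21.4% lower at P5. Age cannot be told apart from the dissected tissue, the pooling of pups and the libraries. *Gstm1* rose from 29.9 ± 8.53 CPM (SD, n = 3) to 526.5 ± 58.7 (SD, n = 2), log2 4.29 (SE 0.17), with *Gstp1* from 18.8 to 95.6, and 8 of 11 tested glutathione S-transferases rose. By contrast *Meis2* fell from 241 ± 57.1 to 76.3 ± 4.03 CPM, *Zbtb20* from 333 ± 51.3 to 125 ± 12.7, and *Prox1* from 130.5 ± 25.3 to 81.8 ± 11.6. Of the study's list 2 of 9 rose, *Gstm1* and *Kctd12*, and 5 fell. All 4 tested GABAB receptor and Kctd genes rose, as did 12 of 12 calcium-binding genes, with *Calb2* (calretinin) from 59.4 to 604 CPM and *Vsnl1* from 62.9 to 304. Cholesterol synthesis fell in 16 of 22 genes, and lineage factors in 15 of 20, among them *Sox11* from 1981 to 460 CPM and *Neurod1* from 54.0 to 3.71. Proliferation genes fell in 7 of 10, from low levels, *Top2a* from 10.8 to 0.757 CPM.

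The largest rises from E18.5 to P5 included those of *Mobp*, *Mag*, *Banf2os*, *Fam187b* and *Aqp4*, of which *Mobp* and *Mag* are myelin genes and *Aqp4* is the water channel of astrocytes. *Mobp*, *Banf2os* and *Fam187b* had no UMI in any of the 3 E18.5 control libraries. Oligodendrocyte markers summed to 18.4 to 34.2 CPM in *Cdkn1c*-high cells of E18.5 controls and to 905 and 477 at P5. Without cells of 5 or more glial UMIs 4657 genes were called, and *Mobp* was too low to be tested, while *Gstm1* was higher by 4.45 on the log2 scale. The largest falls were those of *Olfr1124*, *Mfap4*, *Insm1*, *Ebf3*, *Hist1h2ak* and *Otx2*, with *Insm1*, a zinc finger factor of newborn neurons, at 25.6 ± 7.70 CPM at E18.5 and 0.357 at P5.

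At E14.5 the limits took 882 of 3952 pontine cells, 20.5% to 26.9% per control library and 16.9% to 21.4% per Atoh1S193A/- library. These cells had *Cdkn1c* at 618 to 713 CPM in controls, but *Gstm1* at only 7.65 to 8.12 CPM and *Prox1* at 28.6 to 33.8, and *Prox1* was detected in 25.5% to 35.1% of them. Granule lineage markers summed to 53.1 to 148 CPM over the 6 libraries, and between 38.5% and 60.4% of the cells held *Pax6* and Hox UMIs. Fewer of the E14.5 cells than of the P5 cells thus carried the markers of the population, a comparison that was not tested.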

How the data were processed

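Single cells of 14 libraries were profiled by 10x Genomics 3′ sequencing. Per the file headers the authors aligned and counted the reads with Cell Ranger (3.1.0 for E14.5 control libraries 1 and 2 and 5.0.1 for the others) against mm10 with the WPRE sequence added, and deposited UMI counts per gene and cell for 31054 genes. The authors state a lower mitochondrial limit than the 10% used here and their doublet filter was not rerun. Groups came from the labels.

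Counts were summed per library and population (Python 3.11.15, scanpy 1.11.5 for Scrublet) and tested with the quasi-likelihood test of edgeR 4.0.16, with Benjamini-Hochberg adjustment over all genes detected in at least 10% of the cells of either group (DESeq2 1.42.0 as an alternative). This test gives no standard error (SE), so the SE was taken as the absolute log2 change divided by the square root of the F statistic. At P5, CPM with a pseudocount of 1 was compared in each library with no test. Libraries with under 10 cells of a population would have been left out and none was. The cells chosen, the gene lists and the rules were set with earlier results of these data known. The rule for named genes took the markers, the study's list, the 12 genes with the largest P5 difference each way, the 6 largest called rises and falls of each test, and at most 4 genes of each list by their P5 difference. Genes named beyond that rule were chosen after their values were seen. Embryos are single animals, whereas the P5 libraries are pools, so P5 spread is that between pools. Intervals of shares cover counting error only. Same-numbered E18.5 embryos are littermates by the study's methods, and the deviations of the pairs correlated at 0.13, 0.02 and 0.18. Library totals were 108239001 to 236964126 UMIs. Results for a few genes are not reported here. The scripts were tested on simulated data.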

Additional observations from a re-analysis of the deposited data

Results flagged for a closer look

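The difference between *Cdkn1c*-high and comparison cells differed between P5 and E18.5 controls for 36 of the genes named, by edgeR's test of the interaction of population and stage. Values are log2 interactions, positive where the P5 difference was the higher. Because P5 results chose the cells, the P5 side is a description. The genes came from the study's list, from the largest P5 differences or from the largest called interactions. Their number was thus largely set by that choice. Over all genes, 1502 of 11316 were called (13.3%). Of the study's list they were *Gstm1* (2.45), *Kctd12* (0.36), *Prox1* (2.27), *Zic1* (1.07), *Meis2* (1.35), *Zic4* (0.86), *Phlda1* (0.68), *Syt4* (0.90) and *Zbtb20* (0.64). Of other genes higher at P5 they were *Fbxo2* (1.71), *Kctd8* (1.99), *Tmem163* (0.73) and *Lrrn3* (1.04). For genes lower at P5 they were *Pnoc* (-3.27), *Pcp4* (-2.45), *Sst* (-2.77), *Ebf1* (-2.34), *Fam19a1* (-2.45), *Ajap1* (-1.77), *Neurod6* (-1.67), *Col11a1* (-2.02), *Sostdc1* (-2.12), *Lpl* (-1.93) and *Calb1* (-1.81).

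The 6 largest called interactions each way were *Fgf10* (5.20), *Cfap45* (4.43), *Rbpms* (4.31), *Syt6* (4.22), *Pcsk5* (4.13) and *Lmx1a* (3.92), and *Gabrd* (-8.35), *Igf1* (-3.94), *Penk* (-3.93), *Slc25a13* (-3.88), *Lrrn4* (-3.70) and *Fhod1* (-3.62). A gene could enter the test by its detection in 1 group alone, so its level in another could be very low. Ratios to a very low level can be large, and the levels of these genes are not given here. The part of low levels in the size of these interactions was not tested. *Syt6* was lower in *Cdkn1c*-high cells at E18.5, where comparison cells carried more granule and unipolar brush cell markers. *Lmx1a* is 1 of the 3 unipolar brush cell markers, which summed to 106 to 172 CPM in comparison cells of E18.5 controls. At P5 these 3 were low, at 2.99 and 0.533 CPM in *Cdkn1c*-high cells and 1.51 and 1.91 in comparison cells. With the restriction to cells with *Pax6* and Hox UMIs, 801 genes were called in place of 1502.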

How the results depend on the processing

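The share of *Cdkn1c*-high cells at P5 depended on the limit, at 12.6% with at least 4 *Cdkn1c* UMIs, 6.76% with at least 10 and 6.24% after thinning to 10000 UMIs, and lay between 9.21% and 11.2% by library. The 66 genes at least 2-fold apart at P5 became 36 (14 higher, 22 lower, 34 shared with the 66) when all other pontine neurons were the comparison, and 75 to 76 in single libraries. At E18.5 the 832 calls between populations became 435 with DESeq2, 1466 against cells of 0 or 1 *Cdkn1c* UMI and 131 with *Pax6* and Hox UMIs, 555 with no replicate block, and 649 to 785 without 1 library each. The log2 change of *Syt4* was -0.021 against cells of 0 or 1 UMI and that of *Sst* -0.051 with *Pax6* and Hox UMIs, the opposite sign of their first values. The causes were not tested.

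Between genotypes, 45 genes (16 higher, 29 lower) were called with no filter on low genes, 2 with the littermate pair as a replicate block, 0 with *Pax6* and Hox UMIs, and 0 to 17 without 1 library each, with 17 without control 3 and 1 without Atoh1S193A/- embryo 1. The block left the share difference at -5.37 points (p = 0.25 by an exact sign-flip test), and the difference ranged from -6.95 to -4.40 without 1 library each. Between E18.5 and P5, 3495 to 4360 genes were called without 1 library each (3495 without P5 library 2 and 4047 without P5 library 1, the remaining P5 library being assumed to vary like those of E18.5). The 1502 interactions became 908 with DESeq2, 801 with *Pax6* and Hox UMIs and 917 to 1230 without 1 library each, the fewest without P5 library 1 or 2. Leaving out glial cells, the *Pax6* and Hox restriction of the genotype and interaction tests, thinning of the E18.5 shares, single P5 libraries and the share among both populations were alternatives chosen after seeing the data.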

Other observations

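*Tmem163*, a zinc transporter of vesicles, was among the 12 highest genes of P5 *Cdkn1c*-high cells, and at E18.5 its level was lower in Atoh1S193A/- than in control embryos without overlap, log2 -1.39, as was *Klhl5* at -0.81, neither of them called by edgeR. These were picked for their size after the values were seen. *Tmem163* was at 18.2 to 27.4 CPM in controls and at 7.44 to 9.16 in Atoh1S193A/- libraries of 28 to 51 cells, so few UMIs stood behind it. Of all genes, 10.4% had libraries that did not overlap between the genotypes at E18.5. *Prox1* was detected in 62.7%, 58.7% and 51.0% of the E18.5 *Cdkn1c*-high cells of control embryos and in 29.4%, 42.9% and 32.0% of those of Atoh1S193A/- embryos, and the groups did not overlap. At E14.5 the detected shares were 35.1%, 25.5% and 32.3% in controls and 41.0%, 42.0% and 32.4% in Atoh1S193A/- embryos, and the groups overlapped. The *Prox1* level at E14.5 was 33.8, 28.6 and 28.9 CPM in controls and 45.4, 44.9 and 35.4 CPM in Atoh1S193A/- embryos, higher in the latter without overlap, the opposite order of E18.5. Neither the differences in detection nor the E14.5 levels were tested, and the share of all genes without overlap at E14.5 was not counted. Some E14.5 control libraries, but no Atoh1S193A/- library, were counted with an older Cell Ranger version. Genotype is thus partly mixed with version at E14.5, and the effect of the version was not tested. Between 38.5% and 60.4% of the E14.5 cells per library held *Pax6* and Hox UMIs. A change of order between the stages was not tested either.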
